A study of Mus musculus with 22 samples.

Results

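The antiapoptotic Bcl2 family was followed through 4 sorted stages of mouse eosinophil maturation, with and without neutralisation of IL-5, the main growth and survival cytokine of this lineage. The 7 genes were taken by symbol: Bcl2, Bcl2l1 (which encodes Bcl-xL), Mcl1, Bcl2l2 (which encodes Bcl-w) and the A1 genes Bcl2a1a, Bcl2a1b and Bcl2a1d, out of 24982 genes listed for every library. The A1 genes are near-identical copies, so their counts were also added up and tested as 1 gene, called the A1 sum below. All 7 passed the filter on low counts, which kept 12387 genes.

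All animals were wild-type C57BL/6 mice given recombinant IL-33 at 400 ng a day for 7 days. They then received 3 daily injections of 400 µg of either anti-IL5 or an isotype control antibody, so every library comes from an IL-33-treated animal and the isotype groups are not untreated mice. Stages I to IV were separated from bone marrow by flow cytometry after removal of cells carrying Ly6G, CD90.2, NK1.1 or CD45R, with a stated sort purity of at least 95%. Each antibody contributed 11 of the 22 RNA-seq libraries: 3 each at stages I, III and IV and 2 at stage II. The ages of the animals, and whether a library holds 1 animal or a pool, are not stated in the sources used here, so the p-values measure the spread between these libraries.

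Proteins of this family hold the mitochondrial outer membrane closed by binding the pore formers Bax and Bak and the BH3-only proteins that activate them. When BH3-only proteins outnumber the free antiapoptotic proteins, cytochrome c leaves the mitochondria and caspases are switched on. Mcl-1 protein is short-lived and sets the life span of many granulocytes, A1 is induced by cytokine and NF-kB signalling, and Bcl-xL is a survival protein of granulocytes under cytokine stimulation.

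Library depth was 7161264 to 14781250 gene counts. Levels are given as CPM, the usual count scaled to library size, here with the trimmed mean of M values (TMM), for 1 gene across groups. Fold changes (log2, ± SE) and Benjamini-Hochberg adjusted p-values over all 12387 genes come from edgeR's quasi-likelihood test, with 0.05 as the threshold. The eosinophil marker list, which includes Epx, Prg2 and Siglecf, had no gene at 0 in any group. Its summed level was 41764 to 68167 CPM in all libraries of stages I and II and 9164 to 12115 CPM at stage IV. Because these are bulk samples of sorted cells, fewer cells of a type and less RNA per cell cannot be told apart.

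Mcl1 lies at chr3:95658788-95663176 on the plus strand (GRCm38, GENCODE M21, as for all positions of genes here). Its level in the isotype libraries was 349.6, 205.8 and 345.1 CPM at stage I and 322.6 and 289.4 CPM at stage II. It was 700.9, 599.7 and 729.0 CPM at stage III and 1243, 959.0 and 1172 CPM at stage IV. No library of stages III or IV came as low as any library of stages I or II. Under anti-IL5 the values were 424.9, 342.3 and 217.2 CPM at stage I, 331.0 and 428.6 CPM at stage II, 864.4, 733.4 and 639.4 CPM at stage III, and 943.9, 776.1 and 920.2 CPM at stage IV. Mcl1 rose from stage I to stage IV with isotype (log2 1.90 ± 0.22, adjusted p = 1.32e-07) and with anti-IL5 (log2 1.42 ± 0.22, adjusted p = 7.40e-06). The step from stage II to stage III carried an increase under both antibodies (log2 1.14 ± 0.25, adjusted p = 0.00106 with isotype, and log2 0.97 ± 0.25, adjusted p = 0.00324 with anti-IL5). The latter call was lost without anti-IL5 stage II replicate 1 (log2 0.80, adjusted p = 0.0642). From stage III to stage IV, Mcl1 rose with isotype (log2 0.73, adjusted p = 0.0113). With anti-IL5 that step did not pass (log2 0.24, adjusted p = 0.463).

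Bcl2l1, at chr2:152780668-152831728 on the minus strand, was lowest at stage I and highest at stage IV under both antibodies. Its level with isotype was 17.1, 9.16 and 14.9 CPM at stage I, 32.8 and 26.7 CPM at stage II, 62.6, 54.0 and 42.6 CPM at stage III, and 78.0, 98.3 and 66.8 CPM at stage IV. Ranges of consecutive stages did not overlap. With anti-IL5 the levels were 14.4, 15.7 and 9.35 CPM at stage I, 19.3 and 19.7 CPM at stage II, 36.2, 23.2 and 30.2 CPM at stage III, and 40.7, 39.0 and 31.4 CPM at stage IV. From stage I to stage IV, Bcl2l1 rose by log2 2.56 ± 0.25 with isotype (adjusted p = 1.25e-08) and by log2 1.49 ± 0.25 with anti-IL5 (adjusted p = 2.23e-05). With isotype it rose from stage I to II (log2 1.11 ± 0.27, adjusted p = 0.0108) and from stage II to III (log2 0.83 ± 0.28, adjusted p = 0.0210), while no single step passed with anti-IL5 in this fit. Between stages III and IV with isotype it was at log2 0.61 ± 0.24 (adjusted p = 0.0514). It passed with treatment by number as the replicate block (log2 0.63, adjusted p = 0.0357), where same-numbered libraries of these stages deviated together. It also passed with DESeq2 (0.0362), and without isotype stage III replicate 1 (0.0430) or stage IV replicate 3 (0.0404). Between stages II and III with anti-IL5 it passed without stage III replicate 2 (log2 0.76, adjusted p = 0.0485) and with treatment by number as the replicate block (log2 0.71, adjusted p = 0.0452). The isotype call from stage I to II was lost without stage I replicate 2 (adjusted p = 0.0585) or stage II replicate 1 (0.139). The isotype call from stage II to III was lost without stage II replicate 2 (0.144) or stage III replicate 1 (0.0770). Its stage IV mean under anti-IL5, 37.0 ± 4.97 CPM (SD, n = 3), lay below the isotype mean of stage III, 53.1 ± 10.0 CPM (SD, n = 3).

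Bcl2, at chr1:106538178-106714274 on the minus strand, ran the other way. With isotype its level was 60.3, 36.2 and 43.0 CPM at stage I, 59.3 and 72.8 CPM at stage II, 34.5, 35.3 and 35.2 CPM at stage III, and 8.93, 11.7 and 5.15 CPM at stage IV. With anti-IL5 it was 90.5, 73.4 and 54.2 CPM at stage I, 36.3 and 73.0 CPM at stage II, 28.5, 18.2 and 14.3 CPM at stage III, and 2.03, 2.58 and 0.898 CPM at stage IV. Stage IV libraries of both antibodies lay below every library of earlier stages, and the anti-IL5 libraries of stage IV lay below the isotype libraries. The fall from stage I to stage IV was log2 -2.43 ± 0.34 with isotype (adjusted p = 2.05e-06) and log2 -5.30 ± 0.41 with anti-IL5 (adjusted p = 3.62e-10). Most of it came at the last step, where Bcl2 fell by log2 -2.02 ± 0.34 with isotype (adjusted p = 8.37e-05) and log2 -3.47 ± 0.40 with anti-IL5 (adjusted p = 1.15e-06). From stage II to III it fell by log2 -0.92 ± 0.35 with isotype (adjusted p = 0.0454) and log2 -1.43 ± 0.35 with anti-IL5 (adjusted p = 0.00274). The isotype call was lost without any 1 of its 5 libraries (adjusted p of 0.0815 and 0.200 without stage II replicates 1 and 2, and 0.0940, 0.0911 and 0.0781 without stage III replicates 1, 2 and 3), and the anti-IL5 call without stage II replicate 2 (log2 -0.84, adjusted p = 0.129).

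Bcl2l2, at chr14:54883377-54888234 on the plus strand, was near the limit of detection. A count of 3, taken as the floor, corresponded to 0.222 to 0.411 CPM in a library. Its group means were 3.15 ± 1.86 CPM (SD, n = 3) at stage I and 1.87 ± 0.251 CPM (SD, n = 2) at stage II with isotype, and 0.845 ± 0.894 and 0.959 ± 0.545 CPM (SD, n = 3 each) at stages III and IV. Counts at stage IV were 5, 20 and 10 with isotype and 0 in all 3 anti-IL5 libraries. Against a floor of 3 counts over the anti-IL5 group, Bcl2l2 was at least 10.1-fold lower than with isotype. That bound covers counting error only and not the spread between libraries. Isotype replicates 1, 2 and 3 of stage III, for example, had 14, 0 and 7 counts. The edgeR test put Bcl2l2 at stage IV outside the threshold (adjusted p = 0.0792). DESeq2 (adjusted p = 0.00976) and the fit with no filter on low counts (adjusted p = 0.0483) put it inside, and with counts this low the edgeR log2 value is no measure of size.

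**Figure D1:**
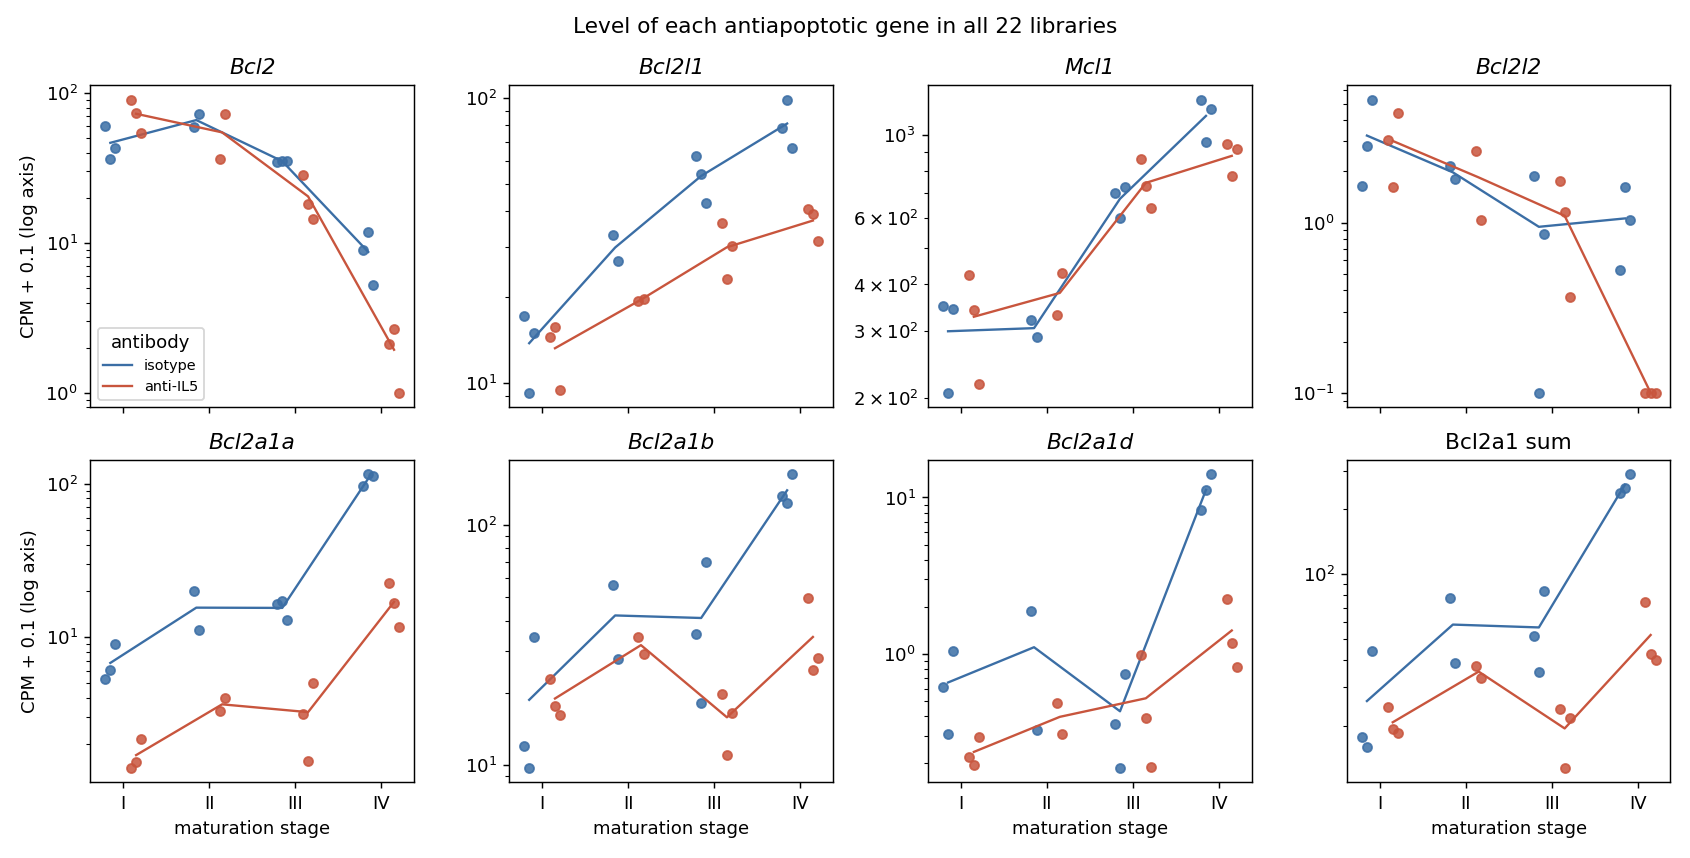
Level of each gene in CPM + 0.1 on a log axis (vertical) at stages I to IV (horizontal), with 1 point for each library and lines joining group means, isotype in blue and anti-IL5 in red. Mcl1 and Bcl2l1 climb and Bcl2 drops towards stage IV under both antibodies, and all 3 anti-IL5 libraries of stage IV have 0 counts of Bcl2l2.

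The A1 genes sit on chromosome 9: Bcl2a1d at chr9:88723285-88731914 on the minus strand, Bcl2a1a at chr9:88956900-88962419 on the plus strand and Bcl2a1b at chr9:89199209-89207827 on the plus strand. Their annotated transcripts were 98.2% identical between Bcl2a1a and Bcl2a1b, 98.8% between Bcl2a1a and Bcl2a1d and 99.1% between Bcl2a1b and Bcl2a1d. Of all stretches of 50 bases, 31.0% of those in Bcl2a1a, 42.4% in Bcl2a1b and 20.5% in Bcl2a1d occurred in no other A1 gene. Read length, and how reads with several positions were treated, are not stated in the sources used here, so the split between copies is uncertain and the A1 sum is the firmer measure. Exons of Bcl2l2 and Bcl2 also overlap other gene models of GENCODE M21 (Gm20521 over 13.3% and D630008O14Rik over 6.09% of the exon length), as do those of Bcl2a1b (Gm29094 over 49.1%), and these models had no row in the count files.

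The A1 start regions are shown because they are nearly the same in the 3 copies, whose antibody responses are given below. The windows hold 250 bases before and 50 bases after the RefSeq start site (GRCm38.p6), and capitals mark GAGGAAGT, a sequence bound by PU.1, a transcription factor of myeloid cells.
Bcl2a1a, chr9:88956670-88956969, plus strand: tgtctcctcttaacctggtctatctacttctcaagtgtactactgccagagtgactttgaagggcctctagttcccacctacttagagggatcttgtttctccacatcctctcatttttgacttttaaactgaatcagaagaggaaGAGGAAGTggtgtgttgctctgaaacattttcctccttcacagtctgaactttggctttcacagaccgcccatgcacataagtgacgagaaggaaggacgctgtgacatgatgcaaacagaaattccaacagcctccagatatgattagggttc
Bcl2a1b, chr9:89199023-89199322, plus strand: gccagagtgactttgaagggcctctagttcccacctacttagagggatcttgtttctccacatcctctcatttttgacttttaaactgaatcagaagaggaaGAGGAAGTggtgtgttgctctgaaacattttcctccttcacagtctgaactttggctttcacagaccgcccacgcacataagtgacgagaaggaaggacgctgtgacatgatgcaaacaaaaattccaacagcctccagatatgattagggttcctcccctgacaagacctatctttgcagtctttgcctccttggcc
Bcl2a1d, chr9:88731801-88732100, minus strand: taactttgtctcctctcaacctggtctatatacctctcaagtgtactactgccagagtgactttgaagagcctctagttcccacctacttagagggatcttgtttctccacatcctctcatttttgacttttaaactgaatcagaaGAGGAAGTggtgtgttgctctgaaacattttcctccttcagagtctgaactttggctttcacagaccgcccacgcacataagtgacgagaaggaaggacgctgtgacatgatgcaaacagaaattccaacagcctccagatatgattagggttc
The Bcl2a1b window is anchored further downstream than the others and aligned with that of Bcl2a1a over 256 bases, which were 99.2% identical. Bcl2a1a and Bcl2a1d were 98% identical. GAGGAAGT was found in all 3 windows, and 3.20% of the 32851 promoter windows of the mouse table hold it on either strand. Neither TTCNNNGAA, the core of STAT binding sites (8.30% of windows), nor the NF-kB motif searched (4.79% of windows) was found in them. Among the windows of the other members, the NF-kB motif matched on the minus strand once in Mcl1 and once in 1 of the 3 Bcl2l1 start regions, TTCNNNGAA and GAGGAAGT matched in none, and the motifs do not overlap each other.

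The A1 sum in the isotype libraries was 17.7, 15.8 and 44.0 CPM at stage I, 77.9 and 38.9 CPM at stage II, 51.5, 35.2 and 83.2 CPM at stage III, and 236.6, 250.2 and 288.8 CPM at stage IV. The stage IV libraries stood apart from all others. With anti-IL5 the A1 sum was 24.3, 19.1 and 18.4 CPM at stage I, 37.7 and 33.1 CPM at stage II, 23.7, 12.7 and 21.5 CPM at stage III, and 74.3, 42.5 and 40.0 CPM at stage IV. The stage IV mean under anti-IL5, 52.3 ± 19.1 CPM (SD, n = 3), was close to the isotype means of stage II, 58.4 ± 27.5 CPM (SD, n = 2), and stage III, 56.6 ± 24.5 CPM (SD, n = 3), with overlapping ranges. The A1 sum rose from stage I to stage IV by log2 3.32 ± 0.39 with isotype (adjusted p = 1.93e-07) and by log2 1.34 ± 0.37 with anti-IL5 (adjusted p = 0.00363). Between stages III and IV alone the increase was log2 2.19 ± 0.37 with isotype (adjusted p = 9.72e-05) and log2 1.43 ± 0.37 with anti-IL5 (adjusted p = 0.00730). From stage II to III with anti-IL5 the A1 sum was at log2 -0.87 and did not pass (adjusted p = 0.0960). This fall passed without the TMM factor (0.0385) and in the fit of only the groups compared (0.0328).

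Counted over the 7 genes, 5 rose and 1 fell between stages I and IV with isotype, where 32.3% of all genes tested rose and 33.9% fell. The 5 were Bcl2l1, Mcl1 and the 3 near-identical A1 genes, which are not 3 separate results. Bcl2a1a rose by log2 4.02 ± 0.35, Bcl2a1d by log2 4.28 ± 0.80 and Bcl2a1b by log2 2.91 ± 0.47. With anti-IL5, 4 rose and 2 fell against 30.7% and 32.8% of all genes. Bcl2a1b did not pass there (log2 0.85 ± 0.45, adjusted p = 0.107), although it did in the fit of only the groups compared (log2 0.84, adjusted p = 0.0180). Bcl2l2 fell there, with 85 counts at stage I and 0 at stage IV. Against the floor, which covers counting error only, this was at least 29.8-fold. Of the single steps with isotype, stage I to II raised 2 members (7.39% of all genes) and lowered 0 (3.25%). Stage II to III raised 2 (19.0%) and lowered 1 (18.0%), and stage III to IV raised 4 (14.8%) and lowered 1 (18.8%). With anti-IL5 the same steps raised 0 (7.27%), 1 (19.8%) and 1 (10.4%), and lowered 0 (5.17%), 1 (19.7%) and 2 (13.4%). For the 0 at stages I to II with anti-IL5, 1 members had an unadjusted p under 0.05, and DESeq2 and limma-voom called 0 and 0. Without the TMM factor the median of all genes shifted by log2 -0.41 in the stage I to IV contrast with isotype and by log2 -0.42 with anti-IL5. Of all genes, 2909 then rose and 5356 fell with isotype, in place of 4001 and 4201, and 2625 rose and 5318 fell with anti-IL5, in place of 3802 and 4066. The directions given for Bcl2, Bcl2l1, Mcl1 and the A1 sum over these stages held under that scaling.

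Per length, the family was dominated by Mcl1 and the A1 genes. On the RPKM scale (CPM per kilobase of annotated exon), Mcl1 was at 87.8 ± 23.9 at isotype stage I and 329.0 ± 43.2 at isotype stage IV (SD, n = 3 each). The 3 A1 genes together were at 31.6 ± 19.3 and 315.4 ± 33.0 RPKM in the same groups. Bcl2 stood at 5.08 ± 1.35 and 0.940 ± 0.361 RPKM and Bcl2l1 at 2.99 ± 0.892 and 17.7 ± 3.49 RPKM, so the order of this pair was opposite at the 2 stages. Mcl1 made up 49.5 ± 4.22% of the summed RPKM of the family at isotype stage IV and the A1 genes 47.6 ± 3.92% (SD, n = 3 each). These ranges overlapped (46.1 to 54.2% and 43.1 to 50.1%). How reads shared by the A1 copies were treated is not stated, which leaves the A1 share uncertain. At stage IV with anti-IL5, Mcl1 made up 78.4 ± 4.71% (73.5 to 82.8%) and the A1 genes 19.1 ± 4.64% (15.0 to 24.1%), and neither range overlapped that of the isotype libraries.

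**Figure D2:**
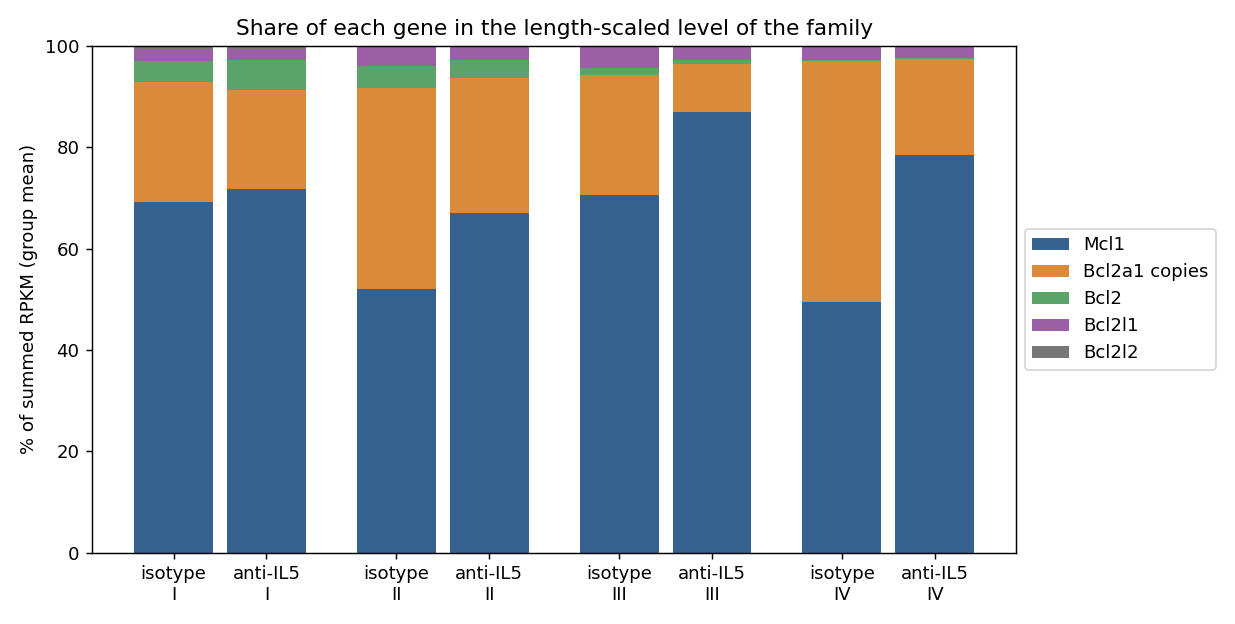
Mean share of each gene in the summed RPKM of the family, in percent (vertical), for the isotype and anti-IL5 libraries of each stage (horizontal). The A1 genes take 47.6% at stage IV with isotype and 19.1% with anti-IL5. Mcl1 has the largest mean share in every group, although its range overlapped that of the A1 genes at isotype stages II and IV.

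Whether neutralising IL-5 changed the family at a given stage was asked next. At stage IV, 5 of the 7 genes were lower with anti-IL5 and 0 higher, where 0.864% of all genes tested were lower and 0.186% higher. Of the 5, 3 were the near-identical A1 copies, which are not 3 separate results, so the A1 sum is also given as 1 gene. The median log2 fold change was -2.24 over the members and 0 over all genes. Bcl2 fell by log2 -2.24 ± 0.40 (adjusted p = 0.00385), from 8.61 ± 3.31 to 1.83 ± 0.857 CPM (SD, n = 3 each). Bcl2l1 fell by log2 -1.13 ± 0.24 (adjusted p = 0.0175), from 81.0 ± 16.0 to 37.0 ± 4.97 CPM. The A1 sum fell by log2 -2.31 ± 0.37 (adjusted p = 0.00188), from 258.5 ± 27.1 to 52.3 ± 19.1 CPM. Each of these had no overlap between the 3 isotype and the 3 anti-IL5 libraries, a separation in this direction seen in 8.73% of all genes at this stage.

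Among the A1 copies at stage IV, Bcl2a1a fell by log2 -2.68 ± 0.32 (adjusted p = 0.000108), from 96.4, 114.8 and 112.2 CPM to 22.4, 16.6 and 11.4 CPM. Bcl2a1b fell by log2 -2.04 ± 0.45 (adjusted p = 0.0287), from 132.0, 124.2 and 162.7 CPM to 49.7, 24.8 and 27.9 CPM. Bcl2a1d fell by log2 -3.09 ± 0.75 (adjusted p = 0.0443), from 8.16, 11.1 and 13.95 CPM to 2.15, 1.07 and 0.719 CPM. All anti-IL5 libraries were below all isotype libraries for each copy.

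Mcl1 at stage IV was 1125 ± 148 CPM with isotype and 880.0 ± 90.8 CPM with anti-IL5 (SD, n = 3 each). The difference of log2 -0.35 ± 0.21 did not pass (adjusted p = 0.687), and its 95% interval ran from -0.77 to 0.06. The Bcl2l1 estimate of log2 -1.13 lay outside that interval, but it has an error of its own, and the difference between these genes was not tested. The Mcl1 libraries did not overlap between antibodies at this stage, a separation in this direction seen in 8.73% of all genes.

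Calls at stage IV differed in how firmly they stood when 1 library was left out. Those of Bcl2, Bcl2a1a and the A1 sum held in all 6 such fits (highest adjusted p 0.0373, 0.00203 and 0.0220), although limma-voom did not call Bcl2 (adjusted p = 0.123). Bcl2l1 lost its call without isotype replicate 2 (adjusted p = 0.138), anti-IL5 replicate 2 (0.0689) or anti-IL5 replicate 3 (0.111). Bcl2a1b lost it without any library but anti-IL5 replicate 1 (adjusted p of 0.0548, 0.0635 and 0.0840 without isotype replicates 1, 2 and 3, and 0.164 and 0.145 without anti-IL5 replicates 2 and 3) and with no filter on low counts (0.114). Bcl2a1d lost it without any of the 6 (0.0674, 0.152 and 0.156 without isotype replicates 1, 2 and 3, and 0.0648, 0.200 and 0.194 without anti-IL5 replicates 1, 2 and 3). The number of members called was then 2 without isotype replicate 2, anti-IL5 replicate 2 or anti-IL5 replicate 3, and 3 without isotype replicate 1 or 3.

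At stage III, 2 of the 7 were lower and 0 higher, where 5.05% of all genes were lower and 1.32% higher. Bcl2a1a fell by log2 -2.28 ± 0.35 (adjusted p = 0.000451), from 16.3, 17.1 and 12.7 CPM to 3.04, 1.44 and 4.90 CPM, and Bcl2l1 fell by log2 -0.83 ± 0.24 (adjusted p = 0.0421). The A1 sum fell by log2 -1.55 ± 0.37 (adjusted p = 0.0157). Bcl2 was at log2 -0.78 ± 0.32 (adjusted p = 0.157) and Bcl2a1b at log2 -1.38 ± 0.46 (adjusted p = 0.0761), and neither passed. Bcl2a1b passed with DESeq2 (adjusted p = 0.0241) and without isotype replicate 2 (0.0219). Bcl2l1 lost its call without isotype replicate 1 (adjusted p = 0.145), isotype replicate 2 (0.0733), anti-IL5 replicate 2 (0.162) or anti-IL5 replicate 3 (0.123). The A1 sum lost it without isotype replicate 3 (0.110), anti-IL5 replicate 2 (0.0761) or anti-IL5 replicate 3 (0.0547).

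At stage II and at stage I, 1 of the 7 was lower, Bcl2a1a in both cases, and 0 were higher. Of all genes, 1.19% were lower and 0.565% higher at stage II, and 1.82% were lower and 2.6% higher at stage I. Bcl2a1a fell by log2 -2.11 ± 0.43 at stage II (adjusted p = 0.0148), from 19.8 and 11.0 CPM to 3.18 and 3.87 CPM. It fell by log2 -2.04 ± 0.38 at stage I (adjusted p = 0.00320), from 5.17, 5.93 and 8.86 CPM to 1.302, 1.43 and 2.04 CPM. The stage I call held in all 6 fits that left out a library, while that of stage II was lost without isotype replicate 1 (log2 -1.59, adjusted p = 0.0704), anti-IL5 replicate 1 (0.122) or anti-IL5 replicate 2 (0.0770). Bcl2 at stage I was at log2 0.64 ± 0.32 (adjusted p = 0.289), Bcl2l1 at log2 -0.07 ± 0.25 (0.935), Mcl1 at log2 0.13 ± 0.21 (0.829) and the A1 sum at log2 -0.33 ± 0.37 (0.717), and none of these passed. The stage II values of Bcl2 (log2 -0.27 ± 0.39), Bcl2l1 (-0.61 ± 0.30), Mcl1 (0.31 ± 0.26) and the A1 sum (-0.72 ± 0.45) did not pass either. Bcl2a1b, a near-identical copy of Bcl2a1a, was at log2 0.02 at stage I (adjusted p = 0.993) and -0.41 at stage II (0.826). The Bcl2a1a calls at these stages therefore depend on how reads were split between the copies.

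**Figure D3:**
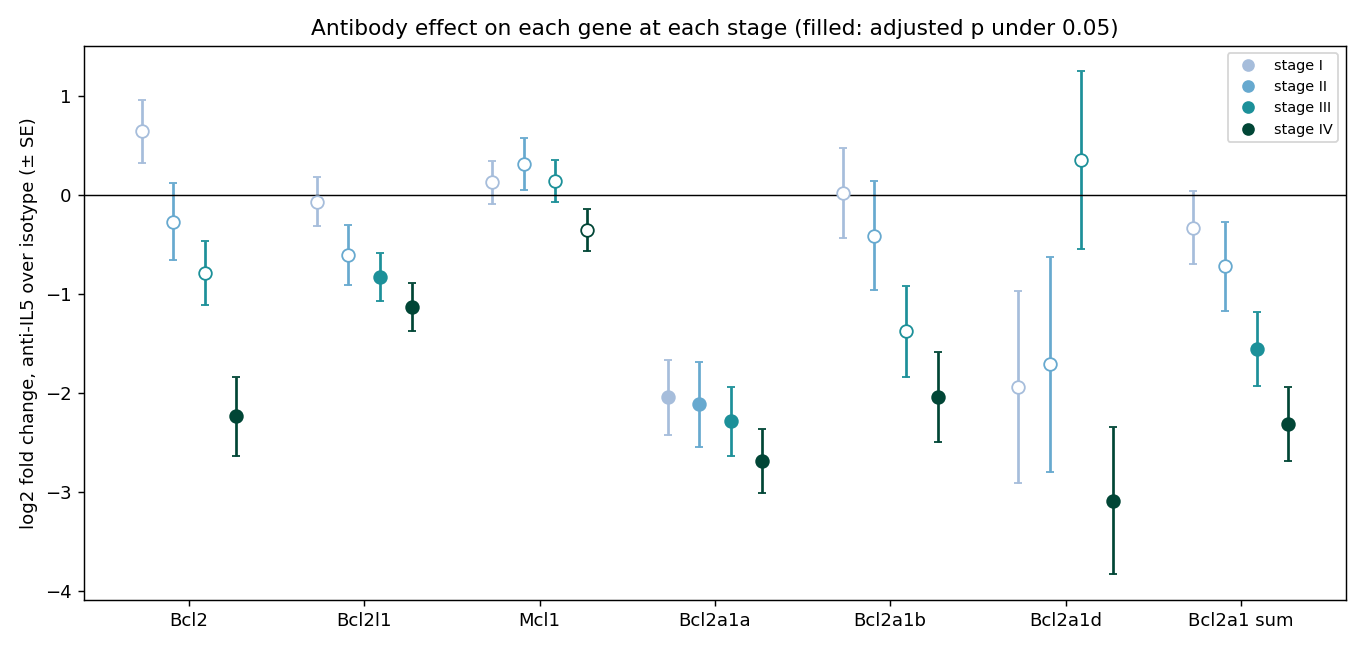
Log2 fold change of anti-IL5 over isotype (vertical, bars ± SE) for each gene and the A1 sum (horizontal) at stages I to IV, light to dark, filled where the adjusted p was under 0.05; Bcl2l2 is left out because it had 0 counts in 1 group. Bcl2a1a lies between -2.04 and -2.68 at all stages, while Bcl2 runs from 0.64 at stage I to -2.24 at stage IV.

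Averaged over the 4 stages, 5 of the 7 were lower and 0 higher, where 10.3% of all genes were lower and 8.59% higher. The 5 again included the 3 A1 copies, and as 1 gene the A1 sum was at log2 -1.23 (adjusted p = 0.000177). Bcl2a1a was at log2 -2.28 ± 0.19 (adjusted p = 6.25e-08), Bcl2l1 at log2 -0.66 ± 0.13 (0.00114), Bcl2 at log2 -0.66 ± 0.18 (0.0122), Bcl2a1b at log2 -0.95 ± 0.24 (0.00817) and Bcl2a1d at log2 -1.60 ± 0.47 (0.0200). Mcl1 was at log2 0.06 ± 0.11, with a 95% interval from -0.17 to 0.28. The Bcl2a1d call was lost without isotype stage II replicate 1 (adjusted p = 0.174), isotype stage III replicate 3 (0.0726) or anti-IL5 stage II replicate 2 (0.0507).

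Whether the antibody effect differed between stages was tested as an interaction over the 4 stages. Bcl2 passed (F = 11.0, adjusted p = 0.0279), 1 of the 7 members, where 1.07% of all genes passed. In pairwise tests added after the data had been seen, the Bcl2 effect at stage IV was log2 -2.88 ± 0.51 below that at stage I (adjusted p = 0.00535), where 0.856% of all genes were called lower. The interaction call of Bcl2 was lost without isotype stage I replicate 2 (0.0670) or 3 (0.0689), isotype stage IV replicate 2 (0.0737), anti-IL5 stage I replicate 1 (0.0656) or 2 (0.0593), or anti-IL5 stage IV replicate 3 (0.0704). The A1 sum (0.173) and Bcl2l1 (0.411) did not pass in this fit, and the A1 sum did without isotype stage I replicate 3 (0.0366). Bcl2a1a gave an adjusted p of 0.952.

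The makeup of the A1 counts differed as well. Bcl2a1a accounted for 29.0 ± 8.69% of the A1 counts at stage I with isotype and 7.98 ± 2.91% with anti-IL5 (SD, n = 3 each). The corresponding shares were 26.8 ± 1.92% and 10.1 ± 2.31% at stage II (SD, n = 2 each), 31.8 ± 16.6% and 15.7 ± 6.24% at stage III, and 41.8 ± 3.65% and 32.6 ± 5.70% at stage IV (SD, n = 3 each). Ranges did not overlap at stages I and II and overlapped at stages III and IV. These shares rest on how reads of near-identical copies were assigned, and Bcl2a1d never exceeded 4.83% of the A1 counts.

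**Figure D4:**
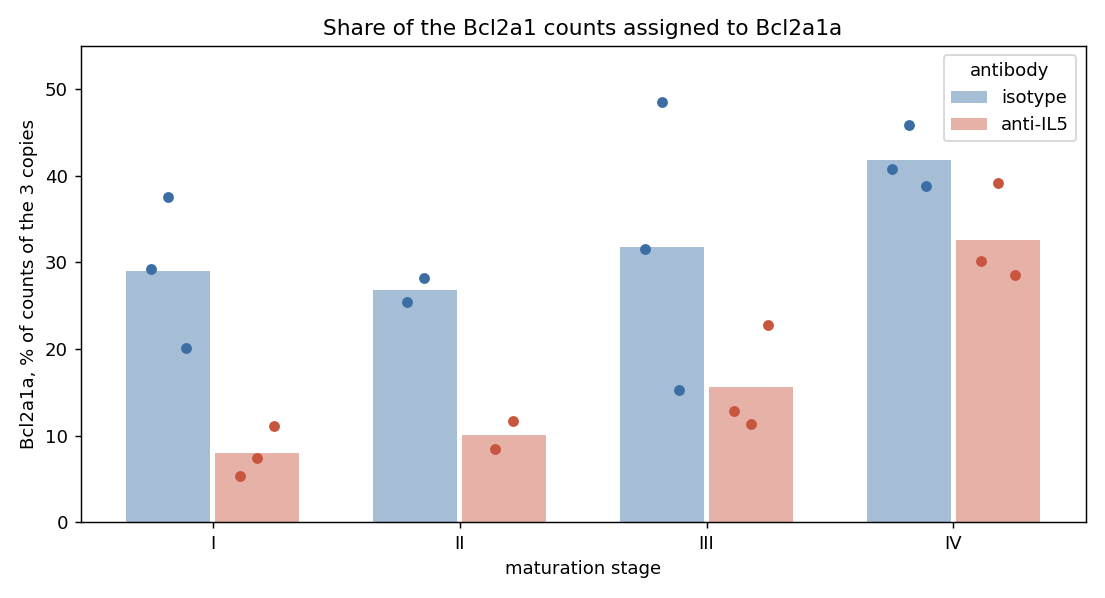
Share of the summed A1 counts assigned to Bcl2a1a in percent (vertical) by stage (horizontal), isotype in blue and anti-IL5 in red, with bars for group means and points for libraries. The anti-IL5 libraries lie below the isotype libraries at stages I and II, at 5.37 to 11.7% against 20.1 to 37.5%.

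Levels of other cell types' markers differed between antibodies at stages II to IV, with some ranges overlapping. At stage II the neutrophil list summed to 4194 to 5952 CPM with isotype and 6916 to 7106 CPM with anti-IL5 (n = 2 each). The basophil and mast cell list summed to 676.5 to 907.2 and 355.3 to 482.4 CPM in these groups. The 12 neutrophil genes summed to 4958 to 5952 CPM at stage IV with isotype and 7385 to 8638 CPM with anti-IL5, with no gene of the list at 0. At stage III the sums were 6716 to 10566 and 10280 to 13374 CPM. The eosinophil list summed to 42585 to 49552 CPM with isotype and 26600 to 31920 CPM with anti-IL5 at stage III, and to 10735 to 12115 and 9164 to 10325 CPM at stage IV. The basophil and mast cell list ran from 578.6 to 1361 CPM with isotype and from 166.1 to 240.8 CPM with anti-IL5 at stage III, with Mcpt4 and Tpsb2 at 0 in both, and the groups overlapped at stage IV. The 8 monocyte genes summed to 2390 to 3269 CPM with isotype and 2399 to 2465 CPM with anti-IL5 at stage IV. The B lineage, T and NK, erythroid and dendritic lists stayed at or below 68.2, 13.1, 28.2 and 10.4 CPM in every library. The part of these cells in the values of the family was not tested. The sort removed Ly6G-positive cells.

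Of the proapoptotic relatives, 9 of 11 listed genes were tested and 0 passed at any stage or on average between antibodies by edgeR. With an unadjusted p below 0.05 as the limit, 0 passed in each of these comparisons, and DESeq2 and limma-voom called 0. Of all genes, edgeR called 0.864% lower and 0.186% higher at stage IV, and 10.3% and 8.59% on average. At stage IV the largest estimate was that of Bmf, a BH3-only gene, at log2 1.06 ± 0.92. Bcl2l11, which encodes the BH3-only protein Bim, was at log2 0.24 ± 0.44, and the pore former Bax was at log2 0.03 ± 0.16. Over maturation 5 of the 9 rose from stage I to stage IV with isotype and 0 fell, beside 32.3% and 33.9% of all genes. These were named after their values were seen: the BH3-only genes Bbc3 (log2 2.59 ± 0.28), Bcl2l11 (log2 1.97 ± 0.46), Bmf (log2 3.97 ± 1.18), Bid (log2 1.20 ± 0.15) and Bad (log2 0.92 ± 0.23). With anti-IL5, 7 rose and 1 fell, beside 30.7% and 32.8% of all genes.

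Genes of the cytokine input to the family changed at every stage. Of 16 listed receptor, kinase and STAT target genes, 3 were lower at stage I, 3 at stage II, 4 at stage III and 4 at stage IV, and 1, 1, 1 and 0 were higher. Of all genes, 1.82%, 1.19%, 5.05% and 0.864% were lower at these stages, and 2.6%, 0.565%, 1.32% and 0.186% higher. Socs2, a STAT5 target that restrains cytokine signalling, fell from 26.4 ± 4.04 to 2.04 ± 1.17 CPM at stage IV (log2 -3.72 ± 0.48, adjusted p = 0.000175). Socs1, a further feedback inhibitor, fell from 101.5 ± 11.2 to 29.9 ± 6.73 CPM at stage IV (log2 -1.76 ± 0.29, adjusted p = 0.00211). Cish, a further STAT5 target, fell from 160.5 ± 47.6 to 33.98 ± 10.1 CPM (log2 -2.24 ± 0.36, adjusted p = 0.00153). Socs2 was also lower at stage I (log2 -5.15 ± 0.56), stage II (-6.75 ± 0.84) and stage III (-4.34 ± 0.54), and Socs1 at stage I (-1.88 ± 0.30) and stage III (-1.85 ± 0.30). Pim1, a survival kinase gene downstream of STAT5, fell at stage I (log2 -2.12 ± 0.30), stage II (-2.46 ± 0.37) and stage III (-1.17 ± 0.29), and the stage III call was lost without isotype replicate 1 or anti-IL5 replicates 2 or 3 (highest adjusted p 0.0750). The gene higher at stages I to III was Bcl6, a transcriptional repressor that STAT5 is known to restrain (log2 2.50 ± 0.50, 2.69 ± 0.62 and 1.62 ± 0.43), named after its values were seen. Its stage II call was lost without any 1 of the 4 libraries, and its stage III call without isotype replicates 1 or 3 or anti-IL5 replicates 2 or 3. Falls of Socs2, Socs1 and Pim1 in these libraries were known when the list was made, so its counts are no independent evidence.

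In the list of apoptosome and caspase genes, 0 of 12 were higher at stages II to IV, and 1, 2 and 0 were lower by edgeR. Of all genes, 0.565%, 1.32% and 0.186% were higher at these stages, and 1.19%, 5.05% and 0.864% lower. At stage IV, 2 had an unadjusted p under 0.05, and DESeq2 and limma-voom called 0. At stage III, Cycs fell by log2 -0.60 ± 0.18 (adjusted p = 0.0456), lost without isotype replicates 1 or 3 or anti-IL5 replicates 2 or 3 (highest 0.238). Endog, a mitochondrial nuclease gene, fell at stage I (log2 -1.38 ± 0.38, adjusted p = 0.0433), stage II (log2 -2.21 ± 0.51, 0.0291) and stage III (log2 -2.49 ± 0.50, 0.00404). The call at stage I was lost in every fit that left out 1 of its 6 libraries (highest adjusted p over all alternatives 0.197). At stage II it was lost without isotype replicate 2 or either anti-IL5 library (highest 0.580). Averaged over stages, Endog (log2 -1.70 ± 0.23), Cycs, which encodes cytochrome c (log2 -0.36 ± 0.09), and Aifm1, which encodes a mitochondrial flavoprotein released in cell death (log2 -0.49 ± 0.12), were lower, beside 10.3% of all genes. Of 6 caspase inhibitor genes, Birc3 (log2 0.65 ± 0.11) and Birc2 (log2 0.39 ± 0.10) were higher on average, beside 8.59% of all genes. At stage III, Birc3 rose (log2 0.70 ± 0.21, adjusted p = 0.0455) and Birc5, a gene of dividing cells, fell (log2 -0.81 ± 0.24, adjusted p = 0.0490). Both calls were lost without isotype replicates 1 or 3 or anti-IL5 replicates 2 or 3, and that of Birc5 also without anti-IL5 replicate 1 (highest adjusted p 0.192 and 0.283). Of 5 tested genes for Mcl-1 protein turnover, such as the ubiquitin ligase gene Huwe1, 0 passed by edgeR, DESeq2 or limma-voom at any stage or on average, and at an unadjusted p under 0.05 the counts at stages I to IV and on average were 2, 1, 0, 0 and 1. Of 8 NF-kB genes, 1 was higher on average, beside 8.59% of all genes. It was Nfkbia, the gene of an NF-kB inhibitor, at log2 0.32 ± 0.11 (adjusted p = 0.0466). Nfkbia lost the call in 17 of 22 fits that left out a library. With all libraries it was also lost without the TMM factor and, separately, under the random replicate block (highest adjusted p over all alternatives 0.139). The remaining antiapoptotic relatives were Bcl2l12, which was tested and did not pass between antibodies, and Bcl2a1c and Bcl2l10, which failed the filter on low counts.

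Genes whose levels ran most like those of the members were found by the root mean square difference of centred log2 CPM over the 22 libraries, among genes averaging at least 10 CPM. For Bcl2 they were Cep89 (0.55), Tbc1d19 (0.64) and Slc30a2 (0.66), where the median over all genes compared was 1.86. Mcl1 was closest to Mknk1 (0.22), Atp8a1 (0.25) and Trim25 (0.27) against a median of 0.83. Bcl2l1 was closest to Fer (0.34), Coro2a (0.37) and Cytip (0.41) against 0.97. The A1 sum was closest to Stk19 (0.66), Cmtm3 (0.71) and Mthfsl (0.75) against 1.32, and Bcl2l2 to Helq (0.88), Bola3 (0.90) and Ier3 (0.90) against 1.58. Cmtm3, the gene of a membrane protein of the chemokine-like factor family, had 101.3 CPM at stage IV with isotype and 32.7 CPM with anti-IL5, beside 8.41 to 11.9 CPM in all groups of stages I to III.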

How the data were processed

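The authors deposited raw counts per gene symbol for each of the 22 libraries. STAR 2.6.1a, DESeq2 and the build mm10 are named in the submitters' processing notes; no source used here states the counting tool, the annotation or the use of strand. Libraries were made with a kit that does not mark strand (SMART-Seq v4, 17 cycles), per the labels' protocols. Without strand, reads of overlapping genes cannot be told apart. The 2 lines that name no gene held 12.7 to 22.1% (no feature) and 1.86 to 2.39% (ambiguous) and were left out.

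Counts were fitted with edgeR 4.0.16 (filterByExpr, TMM, robust quasi-likelihood; R 4.3.3), 8 groups in 1 model, with Benjamini-Hochberg adjustment. SE is the fold change over the root of F. The fit was repeated with the 3 A1 rows summed. DESeq2 1.42.0, limma-voom 3.58.1, other scalings, no filter, only the compared groups, replicate blocks and leaving out each library were alternatives. The test was tried on simulated counts. Depth of 7161264 to 14781250 makes 3 counts equal to 0.222 to 0.411 CPM; floors cover counting error only.

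The members and lists were chosen with earlier results of these data known. From each list, every gene called between antibodies was named where 3 or fewer, otherwise the 3 of smallest p. Same-group libraries differed beyond sampling noise. A result for 1 gene of the lists is not reported here. Replicate numbers are taken from the titles. Deviations of same-numbered libraries correlated positively in all 30 pairs across stages within an antibody (0.0229 to 0.208). They were 0.124, 0.160 and 0.208 for isotype stages III and IV. The main fit did not use this pairing, and calls that changed with replicate blocks are given below.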

Additional observations from a re-analysis of the deposited data

Results flagged for a closer look

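The antibody effect on Bcl2 differed between stages by edgeR's interaction test (adjusted p = 0.0279), from log2 0.64 ± 0.32 at stage I to log2 -2.24 ± 0.40 at stage IV. At stage IV, 3 of 3 anti-IL5 libraries lay below the 3 isotype libraries, while at stage I the groups overlapped. Groups of 2 or 3 libraries were not tested for single libraries far from the rest.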

How the results depend on the processing

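Same-numbered libraries deviated together in all 3 pairs of isotype stages III and IV (correlations 0.124, 0.160 and 0.208). With 2 libraries in a group, every pair also exceeded 0.1 for anti-IL5 stages I and II (0.160 and 0.133). Between antibodies at stage II, where each group held 2 libraries, the pairs must share 1 value, which was 0.338. In no other comparison of the report did every pair exceed 0.1. Same-numbered libraries gave 0.0229 to 0.208 between stages (16 of 30 over 0.1) and 0.0127 to 0.338 between antibodies (2 of 11, the stage II pairs). All 18 of 18 libraries of stages I, III and IV correlated best across stages with their own number, a hint from the data and not the design. With treatment by number as the replicate block, 4 members were called at stages II to III with anti-IL5. There Bcl2l1 passed as a rise (log2 0.71, adjusted p = 0.0452) and the A1 sum as a fall (log2 -0.86, adjusted p = 0.0225). Bcl2a1b at stages I to IV with anti-IL5 (0.0117) and the A1 sum at I to II with isotype (0.00168) also passed, as rises. Bcl2 at II to III with isotype did not pass (0.0558). With the number as the replicate block, Bcl2a1b at stage III (0.0330) and the interaction of the A1 sum (0.0441) passed. Under the random replicate block 0 members were called at stage II, and the calls of Bcl2 at stage IV (0.121), Bcl2a1a at stage II (0.0630) and Bcl2a1d on average (0.0752) were lost. Values near 0 changed sign: Bcl2a1b at stage I was -0.00556 with DESeq2 and -0.00609 with relative log expression factors, and Mcl1 at stages I to II with isotype was -0.0247 with both and -0.11 without TMM. Members called were 0 at stage II with limma-voom and 0 in the fit of only the groups compared, 1 at stage III in the latter, and at stages I to II with isotype 1 without TMM and 0 in the fit of only the groups compared. Leaving out 1 library gave 0 to 1 members called at stage II, 1 to 2 at stage III, 2 to 4 at stage IV, 0 to 3 at stages I to II and 1 to 2 at II to III with isotype, 1 to 3 at II to III with anti-IL5, and 0 to 1 for the interaction. The log2 ranges over these fits were, for Bcl2, -0.86 to 0.15 at stage II and -1.002 to 0.00822 at stages I to II with anti-IL5. For the A1 sum they were -0.58 to 0.29 at stage I and -0.46 to 0.57 at II to III with isotype. For Bcl2a1b they were -0.29 to 0.79 at stage I and -0.83 to 0.22 at stage II, and for Bcl2a1d -2.56 to 0.38 at stage II and -0.75 to 1.31 at stage III. Bcl2l1 ranged from -0.28 to 0.13 at stage I, and Bcl2l2 from -0.49 to 0.46, -0.98 to 0.44 and -0.34 to 1.43 at stages I to III. Mcl1 ranged from -0.10 to 0.35 at stage I, -0.000991 to 0.11 on average, -0.0147 to 0.44 at stages I to II with anti-IL5 and -0.18 to 0.14 with isotype. The causes were not tested. CPM from plain totals moved 7 of 64 group levels by more than 1 SD, and adding Bcl2a1c to the A1 sum changed 0 of 14 results.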
